A study of Mus musculus with 2 samples.

Results

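The 8 genes described here, Nfs1, Lyrm4, Iscu, Hscb, Glrx5, Isca1, Isca2 and Iba57, encode proteins that build iron-sulfur clusters in mitochondria. They were chosen by name and matched to the deposited gene tables by Ensembl identifier; all 8 were found among 43346 Ensembl genes, of which 21461 are nuclear protein-coding. Total RNA was sequenced from primary erythroid progenitors labelled CFU-Ery, dividing precursors of red blood cells, from male C57BL/6J mice of 5 to 6 weeks. There was 1 group of 2 libraries, biological replicates 1 and 2, each from 1 ng of RNA; the labels name neither a treatment nor a genetic change. One donor record is given for both libraries, with a biosample of its own for each, so the spread between them may be technical. No p-value is given, because the smallest that an exact sign-flip test allows with 2 libraries is 0.5. Levels are stated per library, or as mean ± SD.

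Iron-sulfur clusters are cofactors of iron and sulfide that carry electrons or hold enzymes in shape. In mitochondria a cysteine desulfurase supplies sulfur, a scaffold protein holds the forming cluster, a chaperone pair releases it, and carrier proteins pass it on or convert it to larger cubane-type clusters. Erythroid cells use the pathway heavily, since ferrochelatase, the last enzyme of haem synthesis, carries a cluster, and the cluster of the cytosolic aconitase Aco1 sets whether it binds the messenger RNAs of iron metabolism. Defects of GLRX5 and HSCB cause sideroblastic anaemia in humans, and loss of glrx5 causes anaemia in zebrafish.

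The members were measured in libraries dominated by other RNA. Replicate 1 held 143491647 expected counts (estimated reads) and replicate 2 held 110634458. Only 3.29% and 3.70% of them fell in nuclear protein-coding genes, and the members together had 6197 and 5009 counts. Deposited TPM (a level per transcript length) was scaled over all RNA, so that 1 TPM equals 43.1 and 37.0 TPM when rescaled to nuclear protein-coding genes. All 9 erythroid markers examined reached 1 TPM in both libraries, and their summed level was 3727 and 4345 TPM. All 8 neutrophil and monocyte markers also reached it (539 and 734 TPM summed), as did 5 of 6 macrophage (11.5 and 15.02), 3 of 4 B cell (14.96 and 17.1), 3 of 3 basophil and mast cell (8.28 and 8.97) and 1 of 3 T and NK cell markers (2.48 and 2.75). None of the 3 megakaryocyte markers (1.93 and 2.51 TPM summed) and none of the 3 stem cell markers (0.82 and 0.84) did, and none of the 39 markers was at 0 in either library. The part of the other cell types in the members' levels was not tested, and in these bulk samples fewer cells of a type and less RNA per cell cannot be told apart.

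The genes for the carriers Glrx5, Isca1 and Isca2 stood above those for sulfur supply, scaffold and release in both libraries. By mean level Glrx5 and Isca1 were near 15 TPM, Isca2 near 5, Nfs1 and Iscu near 2, and the other members lower, although Hscb stood above Nfs1 in replicate 2. Of the 8 members, 5 (Glrx5, Isca1, Isca2, Nfs1 and Iscu) reached 1 TPM in both libraries, where 12.6% of nuclear protein-coding genes did. On the rescaled TPM all 8 reached 1, where 44.6% of those genes did. The median member stood at 1.68 TPM in replicate 1 and 1.93 in replicate 2 (1.80 ± 0.173, SD, n = 2), beside 0.41 and 0.44 for nuclear protein-coding genes above 0 in both libraries. Isca1 and Glrx5 together held 74.7% and 71.7% of the members' summed TPM of 38.5 and 41.7, while Nfs1, Lyrm4 and Iscu together held 9.52% and 9.68%.

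**Figure D1:**
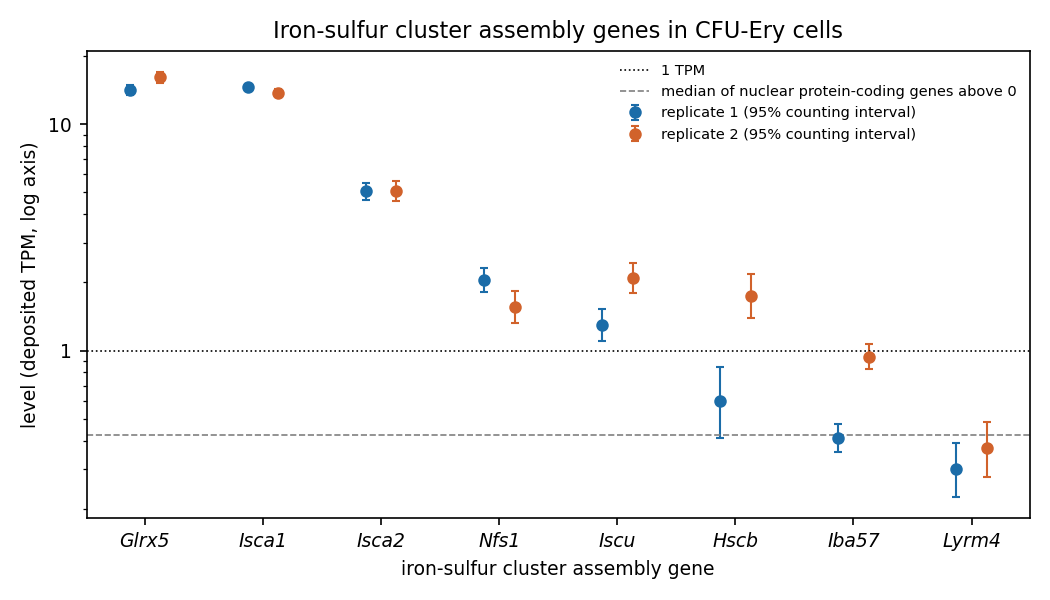
Level of each iron-sulfur cluster assembly gene in deposited TPM on a log axis, 1 point per library with a 95% counting interval, ordered by mean level. Glrx5 and Isca1 lie near 15 TPM in both libraries and Lyrm4 lies at 0.30 and 0.37 TPM, under the dashed line, the median of nuclear protein-coding genes above 0 in both libraries.

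The desulfurase gene Nfs1 stood above its adaptor gene Lyrm4 in both libraries. Nfs1 (ENSMUSG00000027618.13, chromosome 2, 156123639 to 156144186, minus strand) encodes the enzyme that takes sulfur from cysteine, and stood at 2.06 TPM (262 counts) in replicate 1 and 1.56 TPM (154 counts) in replicate 2, or 1.81 ± 0.354. Lyrm4 (ENSMUSG00000046573.6, chromosome 13, 35978395 to 36117526, minus strand) encodes the small protein also called ISD11, which binds and stabilises Nfs1, and stood at 0.30 TPM (55 counts) and 0.37 TPM (52 counts), or 0.335 ± 0.0495. Nfs1 RNA was 6.87-fold the Lyrm4 level in replicate 1 and 4.22-fold in replicate 2; their proteins act as a complex. Most Nfs1 TPM belongs to an incomplete transcript model described further on, and with principal transcripts only, taken after seeing the data, the ratio was 1.87 and 1.30. The levels of these genes did not overlap between the libraries, and Lyrm4 was the lowest member in both.

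The scaffold gene and the gene of its co-chaperone were in the middle of the order. Iscu (ENSMUSG00000025825.8, chromosome 5, 113772748 to 113778288, plus strand), which encodes the scaffold on which the cluster is first put together, stood at 1.30 TPM (151 counts) and 2.10 TPM (169 counts), or 1.70 ± 0.566. The order of Iscu and Nfs1 turned between the libraries, with an Iscu to Nfs1 ratio of 0.631 in replicate 1 and 1.35 in replicate 2. Hscb (ENSMUSG00000043510.8, chromosome 5, 110829070 to 110839777, minus strand) encodes the J-domain protein that brings the loaded scaffold to the mitochondrial Hsp70 chaperone. It stood at 0.60 TPM (32 counts) and 1.75 TPM (83 counts), or 1.175 ± 0.813, the widest spread relative to its mean among the members.

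Of the genes for the later steps, 3 were the most abundant members. Glrx5 (ENSMUSG00000021102.3, chromosome 12, 105032688 to 105042906, plus strand) encodes the monothiol glutaredoxin that takes the new cluster from the scaffold. It stood at 14.1 TPM (1484 counts) and 16.1 TPM (1319 counts), or 15.1 ± 1.42, above 99.1% of nuclear protein-coding genes in each library. Isca1 (ENSMUSG00000044792.6, chromosome 13, 59755409 to 59769810, minus strand) stood at 14.6 TPM (3529 counts) and 13.7 TPM (2599 counts), or 14.2 ± 0.615. Glrx5 was lower than Isca1 in replicate 1 and higher in replicate 2. Isca2 (ENSMUSG00000021241.6, chromosome 12, 84773251 to 84775088, plus strand) stood at 5.05 TPM (489 counts) and 5.06 TPM (381 counts). Its protein partners that of Isca1 in making cubane-type clusters, and the Isca1 level was 2.89-fold and 2.71-fold that of Isca2. Iba57 (ENSMUSG00000049287.5, chromosome 11, 59155369 to 59163739, minus strand), whose folate-binding protein acts with this pair, was far lower, at 0.41 TPM (195 counts) and 0.94 TPM (252 counts), or 0.675 ± 0.375. The 3 genes of this late step thus spanned 35.6-fold in replicate 1 and 14.6-fold in replicate 2.

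By mean level the order was Glrx5, Isca1, Isca2, Nfs1, Iscu, Hscb, Iba57 and Lyrm4. The ranges of the libraries were apart for 3 of the 7 neighbouring pairs, Isca1 over Isca2, Isca2 over Nfs1 and Iba57 over Lyrm4. The last of these was narrow, since Iba57 stood at 0.41 TPM in replicate 1 (95% counting interval 0.354 to 0.472) and Lyrm4 at 0.37 in replicate 2 (0.276 to 0.485). The other 4 pairs overlapped. Counting intervals cover counting error only, since copies made by PCR are not separate molecules.

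Promoters were available for 6 members in the RefSeq table (GRCm38.p6, 250 bases before to 50 after the annotated start), and are printed for the most abundant member, for Isca2 and for the least abundant. Both strands were searched for 5 motifs. Capitals mark the CCAAT box, which was searched by its name's letters, the GATA motif, spelled AGATAA, and the G- and C-rich hexamer GGCGGG. The GC box in its usual spelling, GGGCGG, was not searched for.
Glrx5 promoter (chr12:105032368-105032667, plus strand): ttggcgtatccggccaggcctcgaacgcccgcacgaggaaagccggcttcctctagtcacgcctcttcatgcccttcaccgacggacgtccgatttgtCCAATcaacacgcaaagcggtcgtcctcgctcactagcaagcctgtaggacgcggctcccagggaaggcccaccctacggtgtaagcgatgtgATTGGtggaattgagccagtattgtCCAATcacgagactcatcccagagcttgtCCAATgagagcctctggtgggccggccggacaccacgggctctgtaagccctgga
Isca2 promoter (chr12:84773020-84773319, plus strand): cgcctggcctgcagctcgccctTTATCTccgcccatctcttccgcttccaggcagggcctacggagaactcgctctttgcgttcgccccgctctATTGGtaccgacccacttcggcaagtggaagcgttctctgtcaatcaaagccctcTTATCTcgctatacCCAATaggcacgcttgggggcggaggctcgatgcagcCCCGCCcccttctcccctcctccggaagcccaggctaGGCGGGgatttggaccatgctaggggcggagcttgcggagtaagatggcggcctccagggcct
Lyrm4 promoter (chr13:36117308-36117607, minus strand): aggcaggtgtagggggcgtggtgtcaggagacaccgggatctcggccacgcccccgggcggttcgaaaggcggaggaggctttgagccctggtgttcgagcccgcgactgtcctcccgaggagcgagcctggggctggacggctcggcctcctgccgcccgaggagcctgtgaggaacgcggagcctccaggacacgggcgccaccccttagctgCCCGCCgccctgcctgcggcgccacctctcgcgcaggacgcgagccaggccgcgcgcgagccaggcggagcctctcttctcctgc
Glrx5 held 4 CCAAT matches, at 152, 59, 34 and 5 bases before the start (the first base of the match), where 1.06% of all 32851 promoters held 4 or more; the RefSeq start of Glrx5 lies upstream of the GENCODE gene. Isca1 and Isca2 held 2 each, where 11.7% of promoters held 2 or more, and Nfs1, Lyrm4 and Iba57 held none, where 37.4% held at least 1. AGATAA was present in Isca2 (2 matches) and Iba57 (1), and in 11.2% of all promoters. GGCGGG was present in Isca1, Isca2, Iba57 and Lyrm4, and in 35.3% of all. G and C made up 60% to 73.3% of the bases of the 6 promoters, beside a median of 52.7% over all promoters. The shares over all promoters were not matched for this. The CACCC box, spelled CCACACCC, was in none of the 6 and in 3.56% of all promoters. The E-box CACGTG, also in none of them, was in 7.15%. No matches overlapped in the 6 promoters. Of these 6 members, the 3 most abundant were those with CCAAT matches; this was noticed after the levels were known, and a match describes letters, not a bound site.

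The libraries stood more than 2-fold apart in 1 of the 8 members. Ratios were taken on log2(expected count + 1) after TMM scaling, for the 9824 genes that averaged 20 or more counts, of which 18.1% were over 2-fold apart; all 8 members passed that minimum. Hscb was 2.95-fold higher in replicate 2, a log2 ratio of -1.56 (replicate 1 over 2, 95% counting interval -2.22 to -0.98), and 8.77% of genes were over 2-fold higher in that library. Among 3739 genes within 2-fold of the Hscb count, 29.9% were over 2-fold apart in either direction and 12.7% were at least as far apart as Hscb. The next members were Iba57 at -0.58, Nfs1 at 0.55 and Iscu at -0.37, and Isca1, Isca2, Lyrm4 and Glrx5 lay between -0.13 and 0.23.

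The share of genes over 2-fold apart fell with depth. It was 34.9% for genes averaging 20 to 100 counts, where Hscb and Lyrm4 lie, 6.32% from 100 to 1000 counts, where Nfs1, Iscu, Isca2 and Iba57 lie, and 0.221% above 1000 counts, where Isca1 and Glrx5 lie. The median trended coefficient of variation from edgeR was 52.2%, 24.0% and 13.1% in these bins. It is read from a fitted trend over depth, not estimated for each gene, and leaves out counting error. By counting depth alone, the levels of Isca1 and Glrx5 are the best determined and those of Hscb and Lyrm4 the least.

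**Figure D2:**
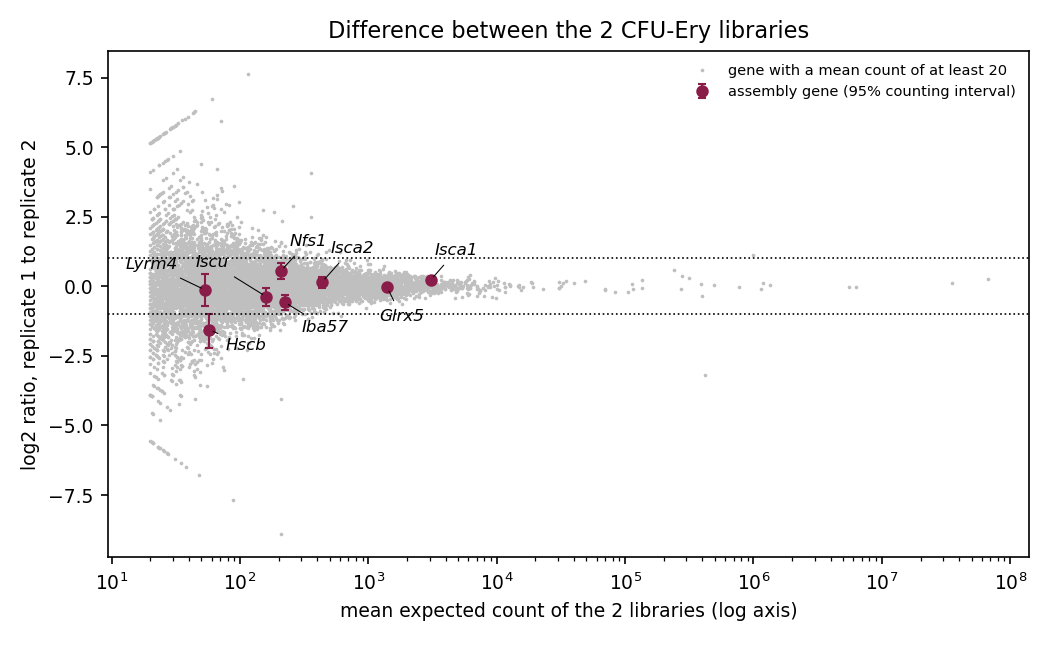
Log2 ratio of replicate 1 to replicate 2 against the mean expected count (log axis) for 9824 genes in grey and the 8 assembly genes in dark red with 95% counting intervals; dotted lines mark 2-fold. Hscb lies past 2-fold towards replicate 2, and the other 7 members lie within 2-fold.

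Part of the difference in Iba57 lay between transcripts. In TPM the gene was at 0.41 and 0.94, a wider gap than its 195 and 252 counts give, because deposited TPM also takes in the library total, larger in replicate 1, and the mean length of the transcripts in use, 3704 bases in replicate 1 and 2725 in replicate 2. The principal transcript Iba57-201 (4021 nt, 3 exons) stood at 0.37 TPM (191 counts) and 0.56 TPM (223 counts). The short Iba57-202 (864 nt, annotated as protein-coding) stood at 0.04 TPM (4 counts) and 0.39 TPM (29 counts), and its isoform percent, the share of the gene's TPM, was 10.05% and 41.1%. None of the bases of Iba57-202 lie in an exon of Iba57-201. Both of its exons, at 59162990 to 59163317 and 59161123 to 59161658 on chromosome 11, lie inside intron 1 of Iba57-201 (59159179 to 59163350). Reads of unspliced RNA and of this transcript cannot be told apart by position there, except across its own junction.

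Most Nfs1 TPM was assigned to an incomplete transcript model rather than to the full coding transcript. Nfs1-204 (510 nt, 3 exons, annotated with an incomplete start) held 55.4% and 59.7% of the gene's TPM, from 56.5 and 35.8 counts. The principal Nfs1-201 (2051 nt, 13 exons) held 27.4% and 30.7% of TPM but 54.6% and 61.6% of counts, at 143 and 94.9. The retained-intron transcript Nfs1-203 held 13.8% and 9.57%, from 57.1 and 23.3 counts. All 510 bases of Nfs1-204 lie within exons of Nfs1-201, and 4.53% of its 25-mers are in no other deposited Nfs1 transcript. What sets it apart is a junction from position 156134459 to 156123978 on chromosome 2, the latter inside the last exon of Nfs1-201 (156123639 to 156124327). The junctions are shown because they tell these transcripts apart; capitals mark the bases after the junction.
Nfs1-201, exon 5 to exon 6: atcattgacttaaagGAACTAGAGGCTGCC
Nfs1-204, exon 2 to exon 3: ccctggaagctgaggGACCTACCTGTGCAG
Reads over the second junction were not counted separately in the deposited tables.

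Hscb TPM was divided between its principal transcript and one annotated for nonsense-mediated decay, the pathway that degrades messages with an early stop codon. Hscb-203 held 62.5% and 44.1% of the gene's TPM, from 14.8 and 23.5 counts. The principal Hscb-201 held 28.1% and 44.3%, from 14.9 and 53.2 counts. In TPM, Hscb-201 stood at 0.17 and 0.77 and Hscb-203 at 0.37 and 0.77, so both were lower in replicate 1. Of the 434 bases of Hscb-203, 429 lie in exons of Hscb-201, and 4.15% of its 25-mers are its own. The transcripts differ at the donor end of an exon, at 110835980 in Hscb-201 and 110835975 in Hscb-203 on chromosome 5 (minus strand), which adds 5 bases, in capitals.
Hscb-201, exon 3 to exon 4: actatatcttctaaagctccaggga
Hscb-203, exon 2 to exon 3: actatatcttGTAAGctaaagctccaggga
In both transcripts the next exon starts at 110834799.

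The other members were carried by coding transcripts. Isca1-201 held 96.3% and 95.4% of Isca1 TPM, with 3356 and 2440 counts, and the retained-intron Isca1-202 had 173 and 159 counts. Iscu-201 held 87.9% and 72.4% of Iscu TPM, from 124 and 128 counts. Glrx5, Isca2 and Lyrm4 have 1 deposited transcript each. Transcripts annotated as protein-coding carried 38.3% and 52.3% of Hscb TPM, 85.9% and 90.4% of Nfs1, 96.3% and 95.3% of Isca1, 100% and 85.7% of Iscu, and 100% of the other 4 members in both libraries. Of 23 deposited member transcripts, 15 had a count in both libraries and 4 had none in either.

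**Figure D3:**
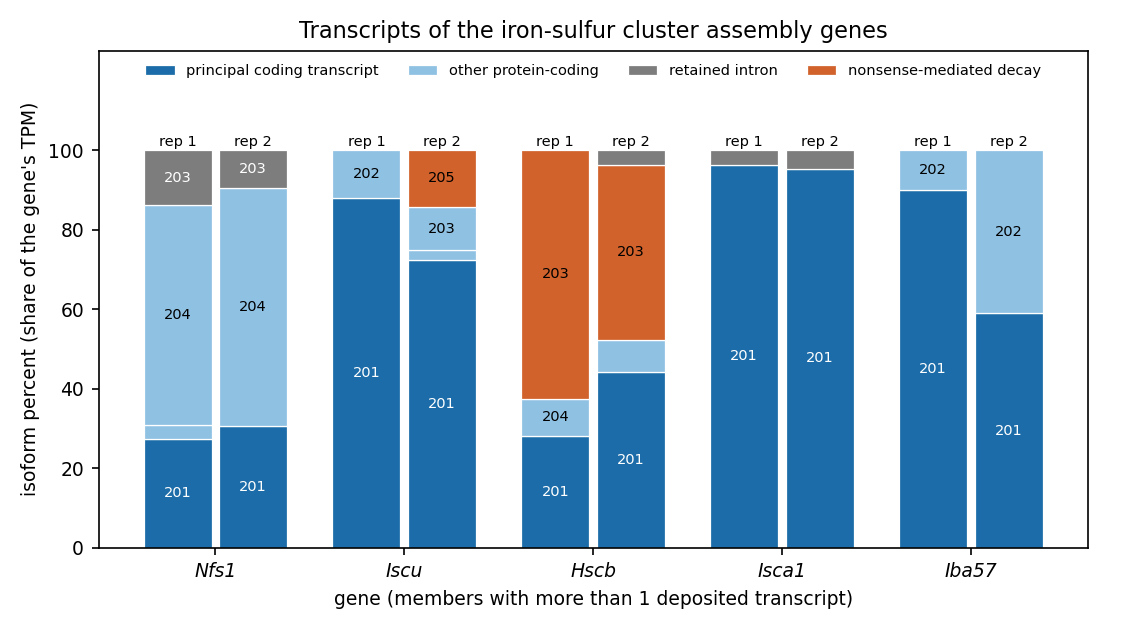
Share of each gene's TPM held by its transcripts (isoform percent, stacked to 100) in each library for the 5 members with more than 1 deposited transcript; numbers in the bars are transcript numbers. Nfs1-204 and Hscb-203 take the largest part of their genes in replicate 1, at 55.4% and 62.5%, while Isca1-201 holds over 95% in both libraries.

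Some members share sequence with other genes, which limits how exactly their reads were placed. Iscu had fractional expected counts, and with the processed pseudogene Gm16437 on chromosome 19 (1.20 and 1.06 counts) they summed to whole numbers, 152 and 170; 20.5% of the 25-mers of Iscu transcripts occur in other genes. Isca1 counts were fractional too. Of the 25-mers of its 2 deposited transcripts (M21 lists 7), 39.4% occur elsewhere, 35.4% in AK157302, which had 0 and 2.38 counts. For Nfs1 the share was 6.95%, and a same-strand protein-coding gene that overlaps its end, Gm28036, had 43.8 counts in replicate 1 and 0.03 in replicate 2. Hscb, Glrx5 and Isca2 share no 25-mer with another gene. On the opposite strand, exons of Romo1 overlap 148 bases of Nfs1, Fars2 115 bases of Lyrm4 and the antisense gene Etohd2 (924 and 501 counts) 314 bases of Isca1; whether counting used strand is not given in the sources used here.

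Other genes of the pathway were mostly lower than the carrier genes. Of 58 genes in 6 lists, 20 reached 1 TPM in both libraries, where 12.6% of nuclear protein-coding genes did, and 51 did on the rescaled TPM, where 44.6% did. The 12.6% is also the background of the count in each list. Of the 7 partners in the core machinery 2 reached it, Ndufab1 (4 and 2.49 TPM), the acyl carrier protein that binds Lyrm4, and Hspa9 (1.04 and 1.17), the Hsp70 chaperone that Hscb serves. Of the ferredoxin genes, Fdx1l stood at 0.41 and 0.65 TPM (35 and 43 counts), and Fdx1 was the lowest partner at 0.08 in each library. Hscb and Hspa9 levels were thus 0.60 against 1.04 TPM in replicate 1 and 1.75 against 1.17 in replicate 2. With protein-coding transcripts only, Hscb stood at 0.23 and 0.91 TPM, under the gene level of Hspa9 in both libraries.

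Among late targeting and cytosolic factors the level differed widely. Bola3, which acts with Glrx5 and Nfu1 in late delivery, stood at 4.34 and 6.77 TPM, and the other late targeting genes Nfu1 (0.31 and 0.61), Bola1 (0.27 and 0.30) and Nubpl (0.05 and 0) did not reach 1 TPM. Nubpl had 18 counts in replicate 1 and 0 in replicate 2, and a count of 0 allows up to 3 counts (a one-sided limit at 95%). The sulfhydryl oxidase gene Gfer stood at 0.24 and 0.17 TPM. Of the 11 cytosolic assembly genes 2 reached 1 TPM in both libraries, a share near the background of 12.6%. They were Ciao2a (2.86 and 2.34) and Ciapin1 (2.29 and 1.17). Mms19 (0.55 and 2.06, from 283 and 375 counts) was next, and Narfl was lowest (0.01 and 0.19).

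Among the proteins that carry clusters, ferrochelatase stood apart. Fech was at 17.9 and 20.5 TPM (6549 and 5857 counts), above Glrx5 and Isca1 in both libraries. Of the 15 genes for mitochondrial cluster proteins 8 reached 1 TPM (median 1.23 in each library), and after Fech the highest were Uqcrfs1 (2.69 and 2.61), the Rieske protein of complex III, and the complex I gene Ndufs7 (2.59 and 2.42). Cisd3 was lowest by mean TPM, with 12 counts and 0. Its posterior mean TPM, the other estimate deposited, was 0.96 and 1.09. Of the 19 cytosolic and nuclear cluster proteins 6 reached 1 TPM (median 0.21 and 0.26). These were led by Rsad2 (6.90 and 8.69), an interferon-induced antiviral enzyme, and by the DNA polymerase gene Pold1 (1.98 and 2.05) and the primase gene Prim2 (1.48 and 2.31), while Nthl1 had 0 counts in both. Aco1, whose protein reads out the cluster supply, stood at 0.17 TPM in each library, from 48 and 66 counts. The mean length of its transcripts in use was 2296 and 3832 bases. Of 49 pathway genes with enough counts, 8 (16.3%) were over 2-fold apart between the libraries, 4 in each direction, beside 18.1% of all genes.

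**Figure D4:**
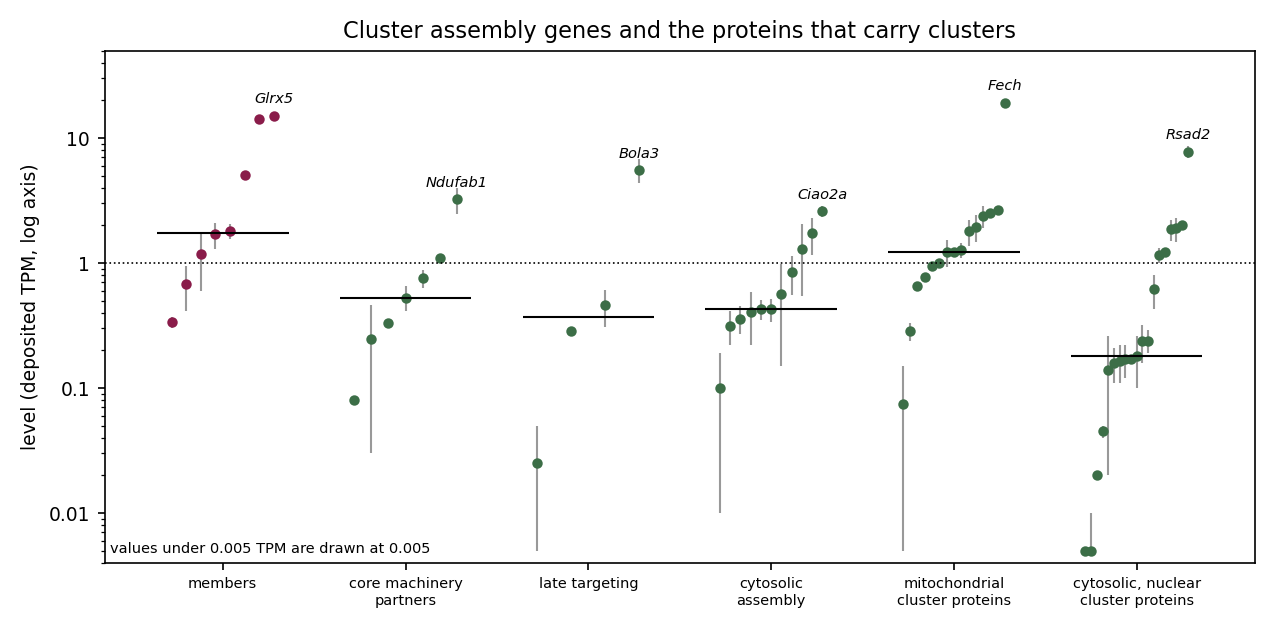
Mean deposited TPM (log axis) of the 8 members and of the genes of 5 pathway lists; grey lines span the 2 libraries, black lines mark the median of the means, the dotted line 1 TPM. Glrx5 and Fech (19.2 TPM) are the highest of their lists, and most genes for cytosolic and nuclear cluster proteins lie under 1 TPM.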

How the data were processed

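Gene and transcript tables of 2 total RNA libraries of CFU-Ery cells were used. The libraries had fragments of 150 to 400 nt, per the labels. Each library was quantified on its own (mm10, GENCODE M4, reads aligned to transcripts), per the description deposited with the files; aligner, quantifier and versions: not given in the sources used here. Per the file headers, the deposited expected counts are estimates and can be fractional. TPM, which the authors give as maximum likelihood and posterior mean, sums to 1000000 over all rows, including mitochondrial rRNA, which held 81.2% and 79.0% of counts, so nuclear levels are small numbers that move with that share. The deposited isoform percent is a transcript's share of its gene's TPM, per the file headers.

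Gene names, coordinates (1-based, GRCm38) and transcript types came from GENCODE M21, in which 20 of the 23 member transcripts have their deposited length. The others are the only deposited transcripts of Glrx5 (930 nt, 2925 in M21), Isca2 (868 and 883) and Lyrm4 (1515 and 2086). Glrx5 and Lyrm4 are the highest and lowest members by mean TPM, which depends on length, and the effect of the M21 lengths was not tested. Genes were called detected at 1 TPM in both libraries. Counts were rounded and compared as log2(count + 1) after TMM, called at 2-fold without a test; intervals are exact Poisson or Clopper-Pearson intervals at 95%. The comparison was tested on simulated counts with counting noise only and changes placed only in genes averaging 100 or more counts. That test covers neither genes at the depth of Hscb and Lyrm4 nor the wider spread between these libraries. Named pathway genes are the 3 highest and 1 lowest by mean TPM of each list (all where a list has 4 or fewer). Aco1, Fdx1l and the genes that share reads or overlap were added for the description. Some genes named by this rule are left out of the text. Members and lists were chosen with earlier results of these data known. Alternatives were rescaled and posterior mean TPM, other minimums, transcript classes, scalings and each library alone. Tools were edgeR 4.0.16 and DESeq2 1.42.0 in R 4.3.3, and pandas 2.3.3 and scipy 1.17.1 in Python 3.11.15.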

Additional observations from a re-analysis of the deposited data

How the results depend on the processing

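Scale set the counts of detected genes. Of the 8 members, 5 reached the minimum in both libraries, against 8 on the rescaled TPM, 3 at a minimum of 2 TPM and 5 to 6 in either library alone. Of the 58 pathway genes 20 did, against 51 on the rescaled TPM, 7 at 2 TPM and 22 in either library alone. No share of nuclear protein-coding genes was computed at 2 TPM or in either library alone, so those counts have no background. The median member level of 1.80 TPM became 71.9 on the rescaled TPM, 1.57 with protein-coding transcripts only and 1.00 with principal transcripts only, which was chosen after seeing the data; it was 1.68 to 1.93 in either library alone. Hscb remained the 1 member over 2-fold apart with DESeq2 size factors, with median centring (18.1% of genes each), on log2(TPM + 0.1) (10.3%), without a count filter (38.1%) and at 1.5-fold (35.2%). The count was 0 on log2(TPM + 1), which shrinks ratios of low genes (0.631% of genes), and 0 at a mean count of at least 100, which leaves Hscb out (5.33%). Of the 7 neighbouring pairs in the order, 3 were apart. In either library alone 4 to 5 were, by counting intervals, but the order and so the pairs differed: Isca1 was first in replicate 1, where Iba57 and Lyrm4 overlapped, and Hscb was above Nfs1 in replicate 2. The order also changed with protein-coding transcripts only (Iba57 above Hscb), principal transcripts only (Iscu above Nfs1) and expected counts (Isca1 first, Iba57 next after Isca2). The median member's share of TPM in protein-coding transcripts was 98.8%, and 97.7% to 100% in either library alone. Glrx5, Isca2 and Lyrm4 have 1 deposited transcript each, annotated as protein-coding, so their share is fixed at 100%. The median does not show Hscb, at 38.3% and 52.3%. No paired analysis was possible because there is only 1 group. Depth limits Hscb and Lyrm4, with 32 to 83 counts per library, the most.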
